A study of Homo sapiens with 9 samples.

Results

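The genes described here are 55 genes of the lysosome and of autophagy, taken by symbol from the 26475 symbols of the count table. They comprise the transcription factors TFEB and TFE3, 15 lysosomal hydrolases and their activators, 5 lysosomal membrane proteins and 8 genes of the V-ATPase proton pump. Autophagy contributes 4 genes of the ULK1 initiation complex, 5 of the PI3-kinase complex and its effectors, 2 of lipid supply, 6 of the conjugation machinery, 3 receptors and MAP1LC3B, whose protein is attached to autophagosome membranes. TFAM, which packages and maintains mitochondrial DNA, completes the list although it is neither a lysosomal nor an autophagy gene, and 3 further members are counted but not described here. All 55 passed the filter on low counts and were among the 13784 genes tested.

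RNA was measured in hTERT-RPE1, an established human line from retinal pigment epithelium that carries the telomerase gene hTERT, 24 h after seeding. In sh_PIP4K2B the lipid kinase PIP4K2B was silenced with 3 hairpins, #1, #2 and #3, in cells on Fibronectin-coated glass, and each hairpin gave 1 library. Control cells carried the empty pLKO vector on the same glass, and Soft cells carried it on a Fibronectin-coated hydrogel of 2.3 kPa, with 3 libraries each. For Control and Soft the treatment label names a control shRNA where the titles name an empty vector. The labels alone do not decide between these, and the paper describes an empty pLKO vector for both groups. The spread within sh_PIP4K2B therefore includes differences between hairpins, and for Control and Soft nothing states that the 3 libraries came from separate cultures, so p-values measure the spread between these samples, which may be technical.

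Lysosomes are acidic organelles in which hydrolases break down material delivered by endocytosis and by autophagy, and the V-ATPase pumps in the protons that the hydrolases need. In autophagy a double membrane forms around cytoplasm under the control of the ULK1 complex and of a PI3-kinase complex. A ubiquitin-like conjugation system then attaches proteins such as that of MAP1LC3B to the membrane, and receptors such as SQSTM1 bring cargo to it. TFEB and TFE3, of the MiT/TFE family, bind an E-box element called CLEAR in promoters of many lysosomal genes, and in fed cells mTORC1 holds them in the cytoplasm. Retinal pigment epithelium is known for a heavy lysosomal load, because it engulfs the shed tips of photoreceptors.

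The promoter windows that hold the palindromic core of the CLEAR element are shown because these letters are the ones MiT/TFE factors are known to bind. Of the 55 members, 42 had a promoter window in RefSeq (GRCh38.p14, 250 bases before to 50 after the start of a transcript) and 13 had none in the table used. The core TCACGTGA, which reads the same on both strands and contains the shorter E-box CACGTG, was found in 6 of the 42 (14.3%), against 1.18% of the 27305 genes with a window. CACGTG itself was found in 11 of the 42 (26.2%), against 8.77% of all genes. The 6 were the hydrolase genes CTSA and GAA, the membrane protein genes LAMP1 and MCOLN1, the pump gene ATP6V0D1 and ATG3 of the conjugation machinery, and GAA, LAMP1 and MCOLN1 each held 2 copies. Each line below runs from 20 bases before the first core to 20 after the last in 5 of them, with the core in capitals.
CTSA (chr20:45891289-45891336, plus strand): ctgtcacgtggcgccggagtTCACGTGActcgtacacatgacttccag
GAA (chr17:80101484-80101576, plus strand): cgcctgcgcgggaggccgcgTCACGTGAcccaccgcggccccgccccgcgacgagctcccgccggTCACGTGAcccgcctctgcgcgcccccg
LAMP1 (chr13:113297190-113297264, plus strand): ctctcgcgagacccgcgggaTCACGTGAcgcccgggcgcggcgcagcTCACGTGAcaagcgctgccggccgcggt
MCOLN1 (chr19:7522562-7522636, plus strand): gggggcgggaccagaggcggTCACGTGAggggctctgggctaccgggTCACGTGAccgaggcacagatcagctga
ATP6V0D1 (chr16:67481190-67481237, minus strand): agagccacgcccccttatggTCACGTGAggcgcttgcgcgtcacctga
A match of these letters is a description of the window and shows neither binding nor a cause. Genes with the core did not share 1 behaviour in the data: CTSA and GAA rose in Soft, while LAMP1, MCOLN1, ATP6V0D1 and ATG3 passed the threshold in no comparison of the fit over 9 libraries.

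Library totals ran from 19217346 to 24020799 counts, and a count of 3, taken as the floor, corresponded to between 0.131 and 0.148 CPM, the count relative to the library total after TMM scaling. PIP4K2B was at 123, 124 and 119.5 CPM in Control and at 48.4, 40.9 and 36.6 CPM with hairpins #1, #2 and #3, that is 39.6%, 33.5% and 29.96% of the Control mean (log2 fold change -1.54, SE 0.12, adjusted p = 3.8e-04, edgeR). In Soft it was at 119, 122 and 127 CPM (log2 fold change 0.00, SE 0.11, adjusted p = 0.98, edgeR). Of 10 markers of retinal pigment epithelium only MITF and OTX2 were above 1 CPM, and the defining genes RPE65, RLBP1, LRAT and TYR were at 0 in most libraries and never above 0.524 CPM. The summed level of these 10 markers was 46.0 to 52.0 CPM in Control, 41.3 to 58.3 in sh_PIP4K2B and 62.7 to 68.1 in Soft. Within the sum OTX2 and MITF moved in opposite directions in Soft. OTX2 was at 10.3, 10.8 and 11.7 CPM in Control and 37.5, 34.8 and 39.4 in Soft. MITF, a relative of TFEB, was at 35.95, 34.3 and 39.3 CPM in Control and 26.4, 25.9 and 25.9 in Soft (adjusted p = 0.026, edgeR). Of 4 markers of simple epithelium EPCAM and CDH1 were at or near 0, and the sum, almost wholly KRT8 and KRT18, was 1921 to 2073 CPM in Control, 708 to 1122 in sh_PIP4K2B and 891 to 943 in Soft. The sum of 5 leukocyte markers was low, between 0.434 and 1.14 CPM in every library. Within it CD14 had a mean of 0.0886 CPM in Control, below the floor, and 0.642 in Soft (adjusted p = 0.0029, edgeR). PTPRC and ITGAM had lower means in Soft, at 0.321 against 0.447 CPM and 0 against 0.0895. The sum of 3 endothelial markers was 0.132 to 0.874 CPM in Control, 0.385 to 0.643 in sh_PIP4K2B and 4.87 to 5.86 in Soft, where PECAM1 made up most of it and CDH5 was at 0. These lists moved with the conditions, and their part in the results below was not tested. In bulk RNA, fewer cells of a kind and less RNA per cell cannot be told apart.

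The 55 genes spanned a wide range of levels. Per kilobase of transcript in Control, the highest was PSAP at 778 CPM per kb, the precursor of the saposins that help hydrolases reach their lipid substrates, and the lowest was ULK2 at 1.18 CPM per kb. The tetraspanin CD63 (749 CPM per kb), the aspartic protease cathepsin D (CTSD, 432), the cysteine protease cathepsin B (CTSB, 191), the receptor SQSTM1 (186) and the membrane glycoprotein LAMP1 (177) followed PSAP in that order, CTSB and SQSTM1 close together. TFEB was the second lowest at 2.11 CPM per kb, far below its relative TFE3 at 41.3. In Soft PSAP stayed first, at 1583 CPM per kb, and CTSD passed CD63 for the second place, at 1264 against 1044 CPM per kb.

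**Figure D1:**
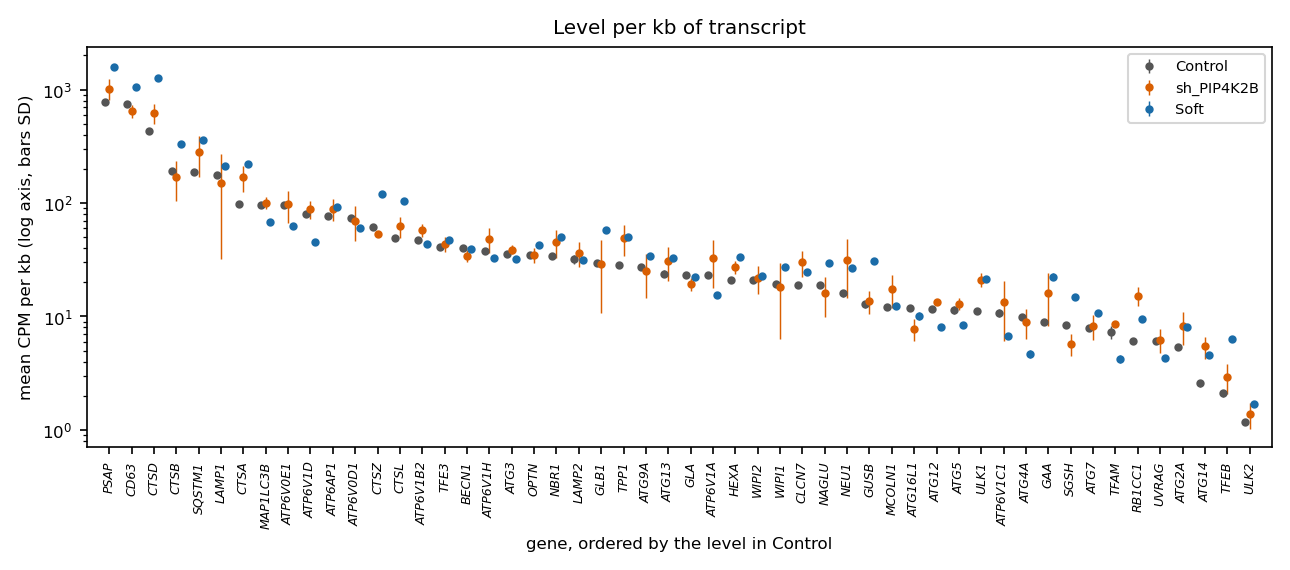
Mean level of 52 of the 55 genes in CPM per kilobase of transcript, on a log axis, ordered from left to right by the level in Control. Points are group means and bars are the SD over 3 libraries; sh_PIP4K2B (orange) has the longest bars, and Soft (blue) lies above Control (grey) for most hydrolases.

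Levels were far less uniform between hairpins than between the libraries of the other groups. Over the 55 genes the median SD of log2 CPM was 0.05 in Control, 0.04 in Soft and 0.35 between hairpins, and over all genes tested it was 0.08, 0.07 and 0.36. The highest hairpin exceeded the lowest by more than 2-fold for 11 genes, with a median ratio of 1.55 over the 55, while the largest such ratio among the Soft libraries was 1.18. For 24 genes 1 hairpin or more was above every Control library and another was below every Control library, and for no gene were the Soft libraries split in this way. With hairpin #1, 18 genes were above 1.5 times the Control mean, compared to 9 with hairpin #2 and 5 with hairpin #3, and in the Soft libraries this number was 21 or 22. Below the Control mean divided by 1.5 were 6, 1 and 4 genes with the hairpins and 4, 4 and 6 in the Soft libraries. The ratios, splits and counts by 1.5-fold were not computed over all genes.

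**Figure D2:**
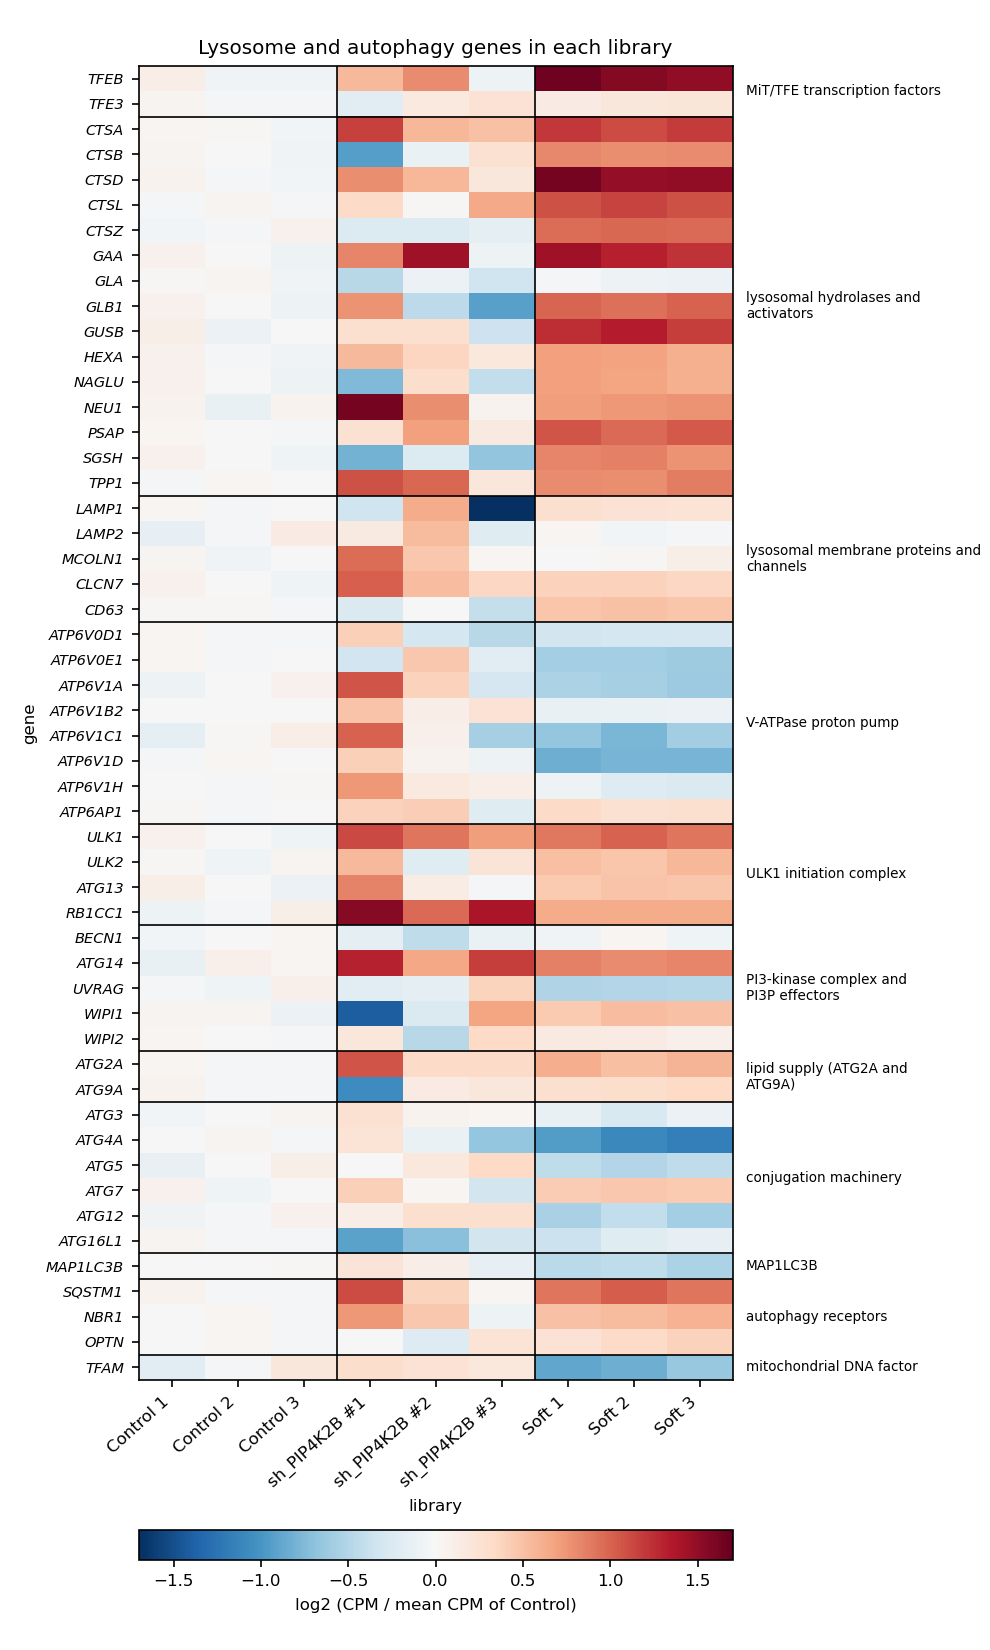
Level of 52 of the 55 genes in each library, as the log2 ratio of its CPM to the mean CPM of Control, with genes grouped by role (right) and libraries in columns. Soft columns are nearly identical to each other, with all hydrolases but GLA red and most V-ATPase genes blue, whereas the 3 hairpin columns differ from each other, as for LAMP1.

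LAMP1 differed most between hairpins. Its level was 488, 471 and 476 CPM in Control and 379, 742 and 103 CPM with hairpins #1, #2 and #3, so that hairpin #2 lay above and hairpins #1 and #3 below every Control library. The ratio of the highest to the lowest hairpin was 7.20, and for a gene at this level counting error is small. The phosphoinositide-binding protein gene WIPI1 stood at 13.95, 30.9 and 58.2 CPM with the 3 hairpins, against 37.9, 38.1 and 34.1 in Control. The gene of β-galactosidase, GLB1, stood at 126, 54.7 and 39.3 CPM against 78.2, 74.5 and 70.1, and that of sialidase, NEU1, at 166, 92.4 and 55.9 CPM against 55.9, 48.9 and 55.7. The order of the hairpins was not shared: hairpin #1 was lowest for WIPI1 and highest for GLB1 and NEU1. The other 7 genes with a ratio above 2 were ATP6V1C1, GAA, ATP6V1A, ATG9A, CTSB, SQSTM1 and NAGLU.

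In sh_PIP4K2B against Control, which asks which of these genes follow the loss of PIP4K2B, 3 genes rose in the fit of all groups. In a fit of these 2 groups alone 0 of the 55 passed. ULK1, the kinase that starts autophagy, RB1CC1, which encodes the scaffold FIP200 of the ULK1 complex, and ATG14, the subunit that directs the PI3-kinase complex to autophagy, were higher with every hairpin. These 3 of the 55 genes (5.45%) passed an adjusted p of 0.01 as higher and 0 as lower, against 2.76% and 2.77% of all genes tested. By DESeq2 7 were higher and 2 lower, where 1087 and 979 of the 13784 genes tested were. An unadjusted p below 0.05 in edgeR was reached by 24 of the 55 (43.6%), against 33.2% of all genes. The median log2 fold change was 0.22 over the 55 and 0.05 over all genes, and 41 of the 55 were positive. The 3 hairpins lay above every Control library for 14 genes and below for 5, against 17.4% and 16.7% of all genes.

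ULK1 (chr12:131894622-131923150, GRCh38) was at 61.7, 59.0 and 56.0 CPM in Control and 129, 110.4 and 96.7 CPM with hairpins #1, #2 and #3, a 1.90-fold rise (log2 fold change 0.93, SE 0.12, adjusted p = 0.0016, edgeR). RB1CC1 went from 38.4, 40.0 and 43.5 to 119, 79.5 and 106 CPM, a 2.499-fold rise (log2 fold change 1.32, SE 0.14, adjusted p = 9.7e-04, edgeR). ATG14 (chr14:55366391-55411830) went from 11.1, 12.9 and 12.5 to 30.2, 19.2 and 27.5 CPM, a 2.11-fold rise (log2 fold change 1.08, SE 0.17, adjusted p = 0.0035, edgeR). In each of the 3 the lowest hairpin was clear of the highest Control library, and hairpin #1 was the highest. None of these calls held in a fit of Control and sh_PIP4K2B alone, in which 0 of the 55 genes and 5 of all genes passed 0.01. The silenced gene PIP4K2B itself did not pass in that fit (adjusted p = 0.012, edgeR). Without Control replicate 2 none of the calls of ULK1, RB1CC1 and ATG14 held in the fit of all groups (adjusted p = 0.010 to 0.026, edgeR). ULK1 also failed without Control replicate 1 or 3, and ATG14 without any 1 Control or Soft library and with the replicate number as a block, with fold changes between 0.81 and 1.47 on the log2 scale over all libraries left out. The other genes of these complexes, ULK2, ATG13, BECN1, UVRAG, WIPI1 and WIPI2, did not pass, with log2 fold changes from -0.23 to 0.37.

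TFEB was at 5.31, 4.74 and 4.72 CPM in Control and 7.23, 8.57 and 4.65 CPM with the hairpins, where #3 was below every Control library and the other two were above (log2 fold change 0.47, SE 0.21, adjusted p = 0.15, edgeR). Without hairpin #3 its adjusted p was 0.0061 in edgeR. TFE3 was at 141, 132 and 135 CPM in Control and 119, 152 and 161 CPM with the hairpins (log2 fold change 0.08, SE 0.12, adjusted p = 0.67, edgeR). For LAMP1 the 95% interval of the log2 fold change ran from -1.38 to 0.91 (log2 fold change -0.23, SE 0.51, adjusted p = 0.79, edgeR), and without hairpin #3 the value was 0.22. SQSTM1 was at 550.0, 520.3 and 515 CPM in Control and 1142, 689.5 and 543 CPM with the hairpins (log2 fold change 0.58, SE 0.23, adjusted p = 0.12, edgeR), with hairpin #1 far above the other two. MAP1LC3B was at 203, 203 and 208 CPM in Control and 238, 222 and 186 CPM with the hairpins (log2 fold change 0.07, SE 0.11, adjusted p = 0.70, edgeR), and hairpin #3 was below Control where #1 and #2 were above.

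Of the 15 hydrolases and activators 0 passed in sh_PIP4K2B, and their log2 fold changes ran from -0.55 for SGSH to 0.97 for NEU1, with a median of 0.35. The hairpins lay above every Control library for CTSA, CTSD, HEXA, PSAP and TPP1 and below for CTSZ, GLA and SGSH. Of the 8 V-ATPase genes 0 passed, with a median of 0.26, and 7 were positive. The 5 membrane proteins, 2 lipid supply genes, 6 conjugation genes, 3 receptors, MAP1LC3B and TFAM had 0 calls between them. Among these ATG16L1, which places the conjugation complex on the membrane, had the lowest value at -0.62 and the chloride transporter gene CLCN7 the highest at 0.66.

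**Figure D3:**
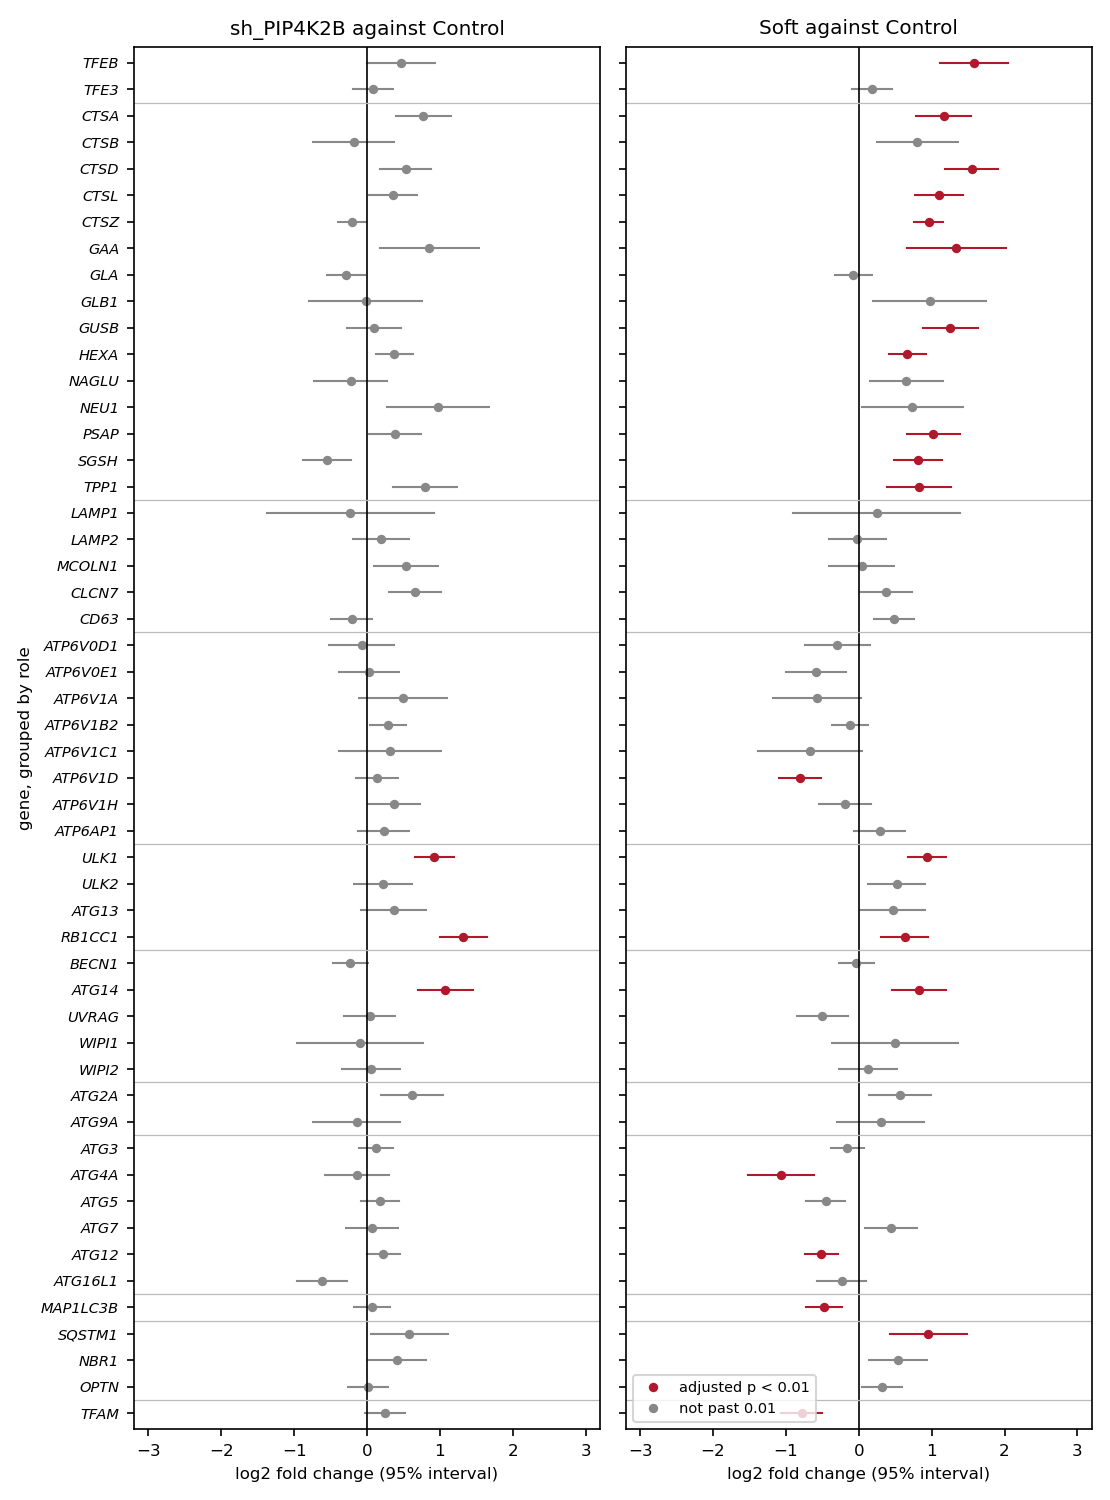
Log2 fold change of 52 of the 55 genes in sh_PIP4K2B against Control (left) and Soft against Control (right), with 95% intervals, from 1 edgeR fit over 9 libraries. Red marks an adjusted p below 0.01: 3 genes on the left, all positive, and 20 on the right, of which 15 are positive and 5 negative; both panels share the Control libraries.

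In Soft against Control, which asks what a compliant substrate does to the same genes in cells with the vector, most of the degradative enzymes and TFEB rose while MAP1LC3B, part of the conjugation machinery and a pump subunit fell. Of the 55 genes 17 passed as higher and 5 as lower, against 15.8% and 14.8% of all genes. With scaling by library size alone the calls over all genes became 2484 higher and 1468 lower, in place of 2181 and 2036, and the median over all genes moved to 0.12. The median log2 fold change of the 55 was 0.44, against 0.01 over all genes. The Soft libraries were above every Control library for 35 genes and below for 15, leaving GLA, LAMP2, MCOLN1, BECN1 and 1 other, against 40.4% and 39.1% of all genes. In a fit of Soft and Control alone, without the spread between hairpins, 34 genes passed as higher and 14 as lower, where 35.5% and 35.2% of all genes did. All 22 genes called in the fit of all groups were among these 48.

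TFEB (chr6:41683978-41736259, GRCh38) had the largest positive log2 fold change of the 55. It was at 5.31, 4.74 and 4.72 CPM in Control and 15.5, 14.6 and 14.04 CPM in Soft, a 2.99-fold rise (log2 fold change 1.58, SE 0.21, adjusted p = 3.1e-04, edgeR). The lowest Soft library was well clear of the highest Control library, although TFEB remained among the 6 genes with the lowest level per kb. TFE3, at 150.2, 156 and 156 CPM in Soft, did not pass (log2 fold change 0.18, SE 0.12, adjusted p = 0.24, edgeR), but passed in the fit of Soft and Control alone with a value of 0.18.

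Of the 15 hydrolases and activators 10 rose and 0 fell, and their median log2 fold change was 0.96. CTSD (chr11:1752752-1764573) was at 931, 876 and 859 CPM in Control and 2740.5, 2513 and 2538 CPM in Soft (log2 fold change 1.55, SE 0.16, adjusted p = 9.1e-05, edgeR). GAA, the acid α-glucosidase that degrades lysosomal glycogen, went from 35.2, 33.7 and 31.5 to 91.1, 83.4 and 78.5 CPM (log2 fold change 1.34, SE 0.30, adjusted p = 0.0057, edgeR). GUSB, β-glucuronidase, went from 30.1, 26.3 and 28.3 to 67.7, 71.2 and 63.9 CPM (log2 fold change 1.26, SE 0.17, adjusted p = 3.2e-04, edgeR). These 3 enzymes rose by 2.92-, 2.52- and 2.39-fold. CTSA, which protects the sialidase and β-galactosidase, went from 187, 184 and 177 to 419, 393 and 416 CPM (log2 fold change 1.16, SE 0.17, adjusted p = 5.3e-04, edgeR). PSAP went from 2183, 2139.9 and 2092 to 4474, 4181 and 4397 CPM (log2 fold change 1.02, SE 0.16, adjusted p = 7.9e-04, edgeR). In these 5 genes the values of the 3 Soft libraries lay within 1.2-fold of each other.

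The cysteine proteases cathepsin L (CTSL, log2 fold change 1.11, SE 0.15, adjusted p = 3.2e-04, edgeR) and cathepsin Z (CTSZ, log2 fold change 0.96, SE 0.09, adjusted p = 4.9e-05, edgeR) also rose. CTSZ had the smallest adjusted p of the 55. SGSH, a sulfatase of heparan sulfate breakdown, rose by a smaller amount (log2 fold change 0.82, SE 0.15, adjusted p = 0.0016, edgeR), as did TPP1, a tripeptidyl peptidase (log2 fold change 0.82, SE 0.20, adjusted p = 0.0076, edgeR), and HEXA, a hexosaminidase subunit (log2 fold change 0.67, SE 0.11, adjusted p = 0.0013, edgeR). The other 5 did not pass, and of these CTSB, GLB1, NAGLU and NEU1 lay above Control in every Soft library, at 0.80, 0.98, 0.66 and 0.74, and each of these passed in the fit of Soft and Control alone. GLA, α-galactosidase A, was the exception at -0.07, with 31.3, 31.7 and 29.5 CPM in Control and 30.2, 29.0 and 28.9 in Soft. Leaving out any 1 Control or Soft library ended the call of GAA (adjusted p = 0.016 to 0.028, edgeR) and TPP1 (0.024 to 0.032), and the block ended that of TPP1. Without Control replicate 3 HEXA failed (0.010), and without Control replicate 2 or 3 SGSH failed (0.010 and 0.011). Of the transcript 75-mers, 60.8% of CTSD, 17.3% of TPP1 and 10.5% of HEXA also occur in transcripts of other annotated genes, so their values are uncertain where the counting split reads.

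No V-ATPase gene rose. Of 8 genes 1 fell, 7 were below every Control library, and the median log2 fold change was -0.43. ATP6V1D (chr14:67294371-67360265), a subunit of the central stalk, was at 125, 130.4 and 127 CPM in Control and 71.7, 73.9 and 73.8 CPM in Soft (log2 fold change -0.80, SE 0.13, adjusted p = 9.2e-04, edgeR). ATP6V0E1, ATP6V1A, ATP6V1B2, ATP6V1C1, ATP6V1H and ATP6V0D1 did not pass, at -0.59, -0.57, -0.11, -0.67, -0.19 and -0.30, and all 6 passed as lower in the fit of Soft and Control alone. ATP6AP1, an accessory protein of the pump, was at 0.29 and passed as higher there. With scaling by library size alone the median of the 8 was -0.33, still negative.

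The summed levels of enzymes and pump describe the same data as a balance. Per kilobase, the 15 hydrolases and activators summed to 1777 ± 46.3 CPM per kb in Control, 2304 ± 278 in sh_PIP4K2B and 3913 ± 118 in Soft (SD, n = 3). PSAP and CTSD made up 68.1% of that sum in Control and 72.8% in Soft, and without them the other 13 summed to 567 ± 12.3, 660.0 ± 23.3 and 1070 ± 9.15 CPM per kb. The 8 V-ATPase genes summed to 443 ± 1.91, 496 ± 89.5 and 360.4 ± 3.21 CPM per kb in the same order. The ratio of these sums was 3.91 to 4.10 in the Control libraries, 4.09 to 5.001 in sh_PIP4K2B and 10.6 to 11.1 in Soft, so that Soft did not overlap with either of the other groups. Hairpin #1, with the highest pump sum at 577 CPM per kb, lay within the Control range of the ratio, while hairpins #2 and #3 lay above it.

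**Figure D4:**
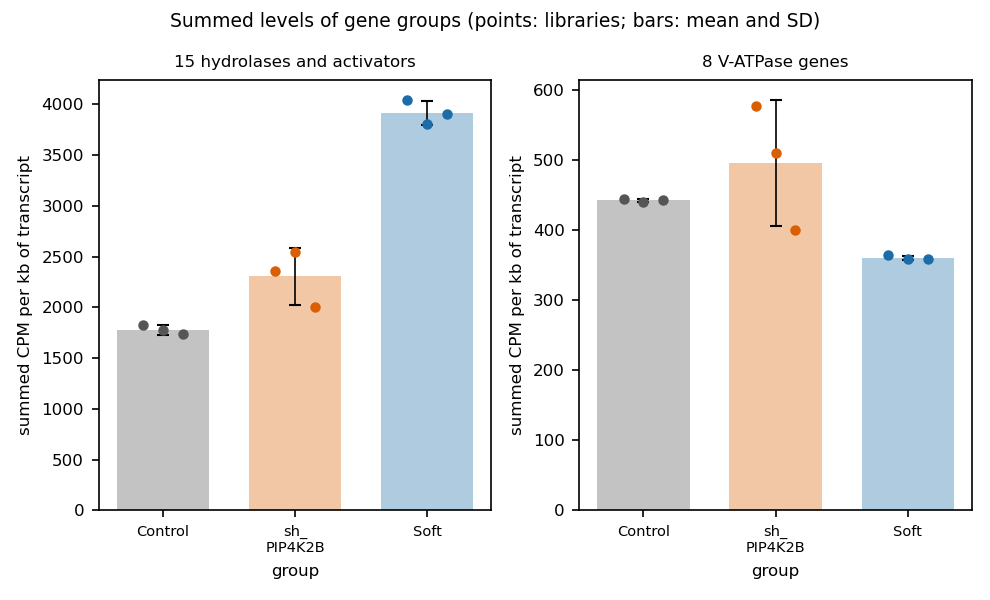
Summed level per kilobase of the 15 hydrolases and activators (left) and the 8 V-ATPase genes (right) in each library (points), with bars for the mean and error bars for the SD. In Soft the enzyme sum is 3913 CPM per kb against 1777 in Control, and the pump sum is 360.4 against 443.

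Of the lysosomal membrane proteins 0 of 5 passed in Soft. LAMP1 was at 577, 565 and 564 CPM, above every Control library, but the spread between hairpins entered its test (log2 fold change 0.25, SE 0.51, adjusted p = 0.71, edgeR), and it passed in the fit of Soft and Control alone at 0.24. CD63 was at 774, 775 and 749.5 CPM in Control and 1061, 1080.4 and 1064 CPM in Soft, with an adjusted p of 0.011 in edgeR. CLCN7 was at 0.38, whereas LAMP2, at -0.02, and the calcium channel gene MCOLN1, at 0.04, overlapped with Control. CD63 and CLCN7 passed as higher in the fit of Soft and Control alone, and LAMP2 and MCOLN1 did not pass.

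ULK1, RB1CC1 and ATG14, the 3 genes that rose in sh_PIP4K2B, rose in Soft too, and both comparisons share the Control libraries. ULK1 was at 109.6, 118 and 111 CPM in Soft (log2 fold change 0.94, SE 0.12, adjusted p = 2.6e-04, edgeR), RB1CC1 at 63.0, 62.8 and 62.6 CPM (log2 fold change 0.63, SE 0.14, adjusted p = 0.0060, edgeR) and ATG14 at 22.1, 21.3 and 21.5 CPM (log2 fold change 0.83, SE 0.17, adjusted p = 0.0029, edgeR). All 3 were above every Control library in each Soft library. The calls of RB1CC1 and ATG14 ended without any 1 Control or Soft library (adjusted p = 0.011 to 0.031, edgeR), and that of RB1CC1 with the block, while ULK1 kept its call throughout. ULK2 and ATG13 were at 0.52 and 0.47 and did not pass, but both passed as higher in the fit of Soft and Control alone. UVRAG, which serves the PI3-kinase complex in endosome traffic, was at -0.50, WIPI1 at 0.49, WIPI2 at 0.13 and BECN1 at -0.03, none past the threshold. In the fit of Soft and Control alone UVRAG passed as lower and WIPI1 as higher, and WIPI2 and BECN1 did not pass. The lipid transporter gene ATG2A and the scramblase gene ATG9A were at 0.57 and 0.30, also not past the threshold, and both passed as higher in that fit. Of the 75-mers of ATG9A, 47.6% also occur in another annotated gene.

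The conjugation machinery had 2 of 6 genes lower and 0 higher, with a median of -0.34. ATG4A, a protease of the conjugation machinery, was at 21.6, 22.4 and 21.3 CPM in Control and 11.3, 10.1 and 9.70 CPM in Soft (log2 fold change -1.07, SE 0.20, adjusted p = 0.0021, edgeR), the largest fall of the 55. ATG12 (chr5:115828200-115841837), the ubiquitin-like modifier, went from 44.6, 46.1 and 49.1 to 31.7, 34.9 and 31.2 CPM (log2 fold change -0.52, SE 0.10, adjusted p = 0.0027, edgeR). Its conjugation partner ATG5 was at 27.1, 25.8 and 27.2 CPM in Soft against 33.6, 36.8 and 39.4 in Control and just missed the threshold (adjusted p = 0.011, edgeR). ATG3 and ATG16L1 were below Control at -0.16 and -0.23 without passing, and ATG7, the activating enzyme of the pathway, was the only positive one at 0.44. In the fit of Soft and Control alone ATG5 and ATG16L1 passed as lower and ATG7 as higher, and ATG3 did not pass. The ATG4A call ended without Soft replicate 2 or 3 (adjusted p = 0.012 and 0.013, edgeR). That of ATG12 ended without Control replicate 2 or 3, without Soft replicate 1 or 3 (0.013 to 0.019) and with scaling by library size, where its log2 fold change was -0.41.

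MAP1LC3B (chr16:87383953-87404779) went from 203, 203 and 208 to 149, 152 and 141 CPM and fell (log2 fold change -0.48, SE 0.11, adjusted p = 0.0070, edgeR), with every Soft library below every Control library. The call was not firm: it ended without any 1 Control or Soft library (adjusted p = 0.025 to 0.039, edgeR), with the block, without the filter on low counts, and with scaling by library size or upper quartile, always with a negative value. In the fit of Soft and Control alone MAP1LC3B passed as lower (adjusted p = 2.3e-08, edgeR). MAP1LC3B shares 15.7% of its 75-mers with its near copy MAP1LC3B2, so its value is uncertain where reads were split.

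SQSTM1, whose protein p62 carries ubiquitinated cargo to autophagosomes, was at 550.0, 520.3 and 515 CPM in Control and 993, 1075 and 998 CPM in Soft (log2 fold change 0.95, SE 0.23, adjusted p = 0.0089, edgeR). Its call ended without any 1 Control or Soft library or hairpin #2 (adjusted p = 0.010 to 0.038, edgeR) and with the block. The receptors NBR1 and OPTN were at 0.54 and 0.32, above Control in every Soft library, and did not pass. Both passed as higher in the fit of Soft and Control alone. TFAM (chr10:58385345-58399220) went from 32.0, 36.1 and 41.7 to 19.9, 20.6 and 23.4 CPM and fell (log2 fold change -0.78, SE 0.13, adjusted p = 9.3e-04, edgeR), whereas the hairpin libraries, at 45.2, 43.6 and 41.5 CPM, did not differ from Control beyond their spread (adjusted p = 0.20, edgeR).

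**Figure D5:**
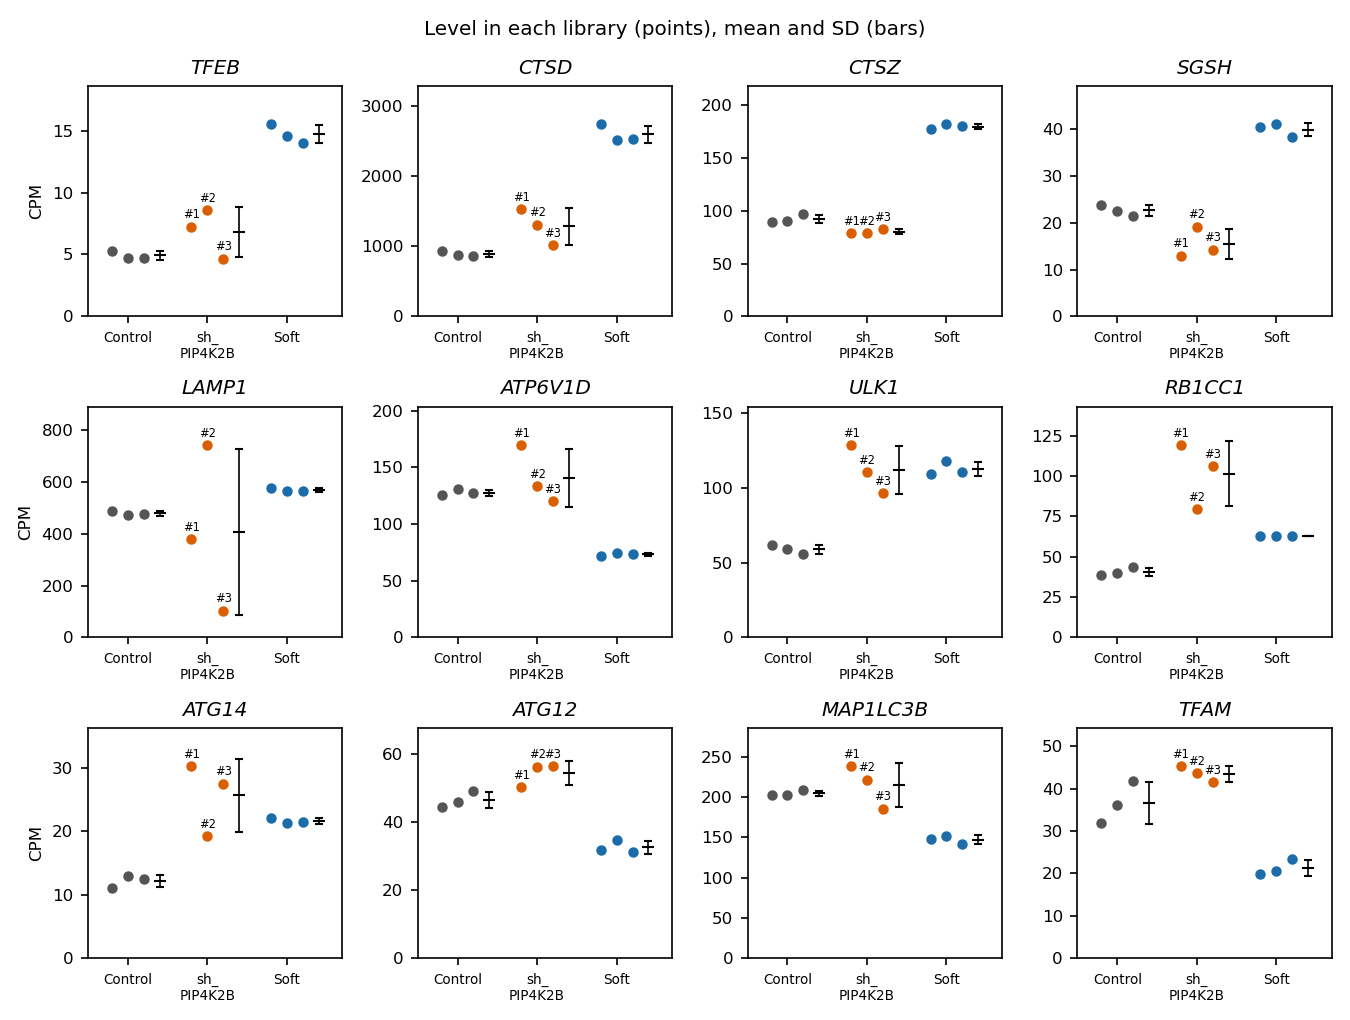
Level in CPM of 12 of the genes in each library, with hairpins numbered, and the mean and SD of each group beside the points; each panel has its own axis from 0. ULK1, RB1CC1 and ATG14 are above Control in all hairpin and Soft libraries, CTSZ and SGSH are below Control in the hairpin libraries and above it in Soft, and LAMP1 spans 103 to 742 CPM between hairpins.

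Whether the 2 conditions differed was tested directly as Soft against sh_PIP4K2B. Of the 55 genes 9 were higher (16.4%) and 7 lower (12.7%) in Soft, near the 14.5% and 15.5% of all genes. The median log2 difference was 0.10 over the 55 and -0.03 over all genes. The calls as a whole therefore did not set the 55 apart. Those higher in Soft included TFEB and several hydrolases, and the 7 lower were 3 conjugation genes, RB1CC1, MAP1LC3B, ATP6V1D and TFAM. The Soft libraries were above every hairpin for 18 genes and below for 14, against 27.3% and 26.7%. In a fit of Soft and sh_PIP4K2B alone 4 were higher, CTSD, CTSZ, GUSB and SGSH, and 3 lower, ATP6V1D, ATG12 and TFAM. Of all genes 2183 passed there in both directions.

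SGSH had the largest difference. Its hairpin libraries, at 13.0, 19.2 and 14.2 CPM, were below every Control library, at 23.8, 22.6 and 21.5 CPM, and its Soft libraries, at 40.4, 41.1 and 38.4 CPM, were above (log2 difference 1.37, SE 0.15, adjusted p = 1.4e-04, edgeR). CTSZ (chr20:58985686-59008238) had the same arrangement, with 78.8, 78.9 and 82.8 CPM in the hairpin libraries, 89.5, 90.7 and 96.8 in Control and 178, 182 and 179.8 in Soft (1.16, SE 0.09, adjusted p = 2.7e-05, edgeR). For ATG12 the arrangement was inverted, with 50.4, 56.4 and 56.4 CPM in the hairpin libraries, above Control, and 31.7, 34.9 and 31.2 in Soft, below it (-0.74, SE 0.10, adjusted p = 4.1e-04, edgeR). Against Control none of the 3 passed in sh_PIP4K2B. These were the only members whose 2 conditions lay on opposite sides of every Control library while the difference passed the test.

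TFEB was higher in Soft than with the hairpins (1.11, SE 0.20, adjusted p = 0.0020, edgeR), with every Soft library above every hairpin. So were CTSD (1.02, SE 0.16, 8.3e-04), GUSB (1.17, SE 0.17, 5.1e-04), CTSL (0.75, SE 0.14, 0.0026), CD63 (0.69, SE 0.12, 0.0018), CTSB (0.99, SE 0.25, 0.0099) and PSAP (0.64, SE 0.16, 0.0096), each given as log2 difference, SE and adjusted p in edgeR. The hydrolases as a group had 7 of 15 higher and 0 lower, with a median of 0.75. Leaving out 1 Soft library ended the call of CTSL (each in turn, adjusted p = 0.011 to 0.013, edgeR), TFEB (Soft replicate 1, 0.011) and CD63 (Soft replicate 2 or 3, 0.010). CTSB failed without any 1 Control or Soft library or hairpin #2 (0.019 to 0.031), and PSAP without any 1 library but hairpin #2 (0.011 to 0.037), and both failed with the block.

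Lower in Soft than with the hairpins were ATP6V1D (-0.95, SE 0.13, 4.1e-04), TFAM (-1.03, SE 0.13, 2.4e-04), ATG4A (-0.93, SE 0.20, 0.0045), ATG5 (-0.63, SE 0.12, 0.0022) and MAP1LC3B (-0.55, SE 0.11, 0.0036), given in the same way from edgeR. RB1CC1 rose in both conditions and more with the hairpins, so that Soft was lower (-0.69, SE 0.14, adjusted p = 0.0037, edgeR). Without any 1 Soft library the calls of RB1CC1, ATG4A, ATG5 and MAP1LC3B ended (adjusted p = 0.011 to 0.023, edgeR), that of ATG4A also without hairpin #2, and that of RB1CC1 with scaling by library size. For ULK1 the difference was 0.01 with a 95% interval of -0.25 to 0.27, and for ATG14 it was -0.25 with an interval of -0.61 to 0.12, neither past the threshold (adjusted p = 0.95 and 0.24, edgeR). TFE3 (0.10, SE 0.12, 0.54), LAMP1 (0.48, SE 0.51, 0.47) and SQSTM1 (0.37, SE 0.23, 0.22) did not pass either, although SQSTM1 did without hairpin #1 (0.72, adjusted p = 8.5e-04, edgeR). The 8 V-ATPase genes had 1 lower and 0 higher, with a median of -0.59. Over the first 2 comparisons 3 genes were called in both and in the same direction, 19 in Soft alone and 33 in neither. This overlap was not counted over all genes, and the 2 comparisons share the Control libraries, so whether it is unusual cannot be told.

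A wider list of 116 genes of the same pathways, none of them among the 55, gave the surroundings, and 112 were tested. In sh_PIP4K2B 5 of the 112 rose (4.46%) and 0 fell, against 2.76% and 2.77% of all genes. In Soft 21 rose (18.8%) and 8 fell (7.14%), against 15.8% and 14.8%. In Soft against sh_PIP4K2B 16 were higher (14.3%) and 17 lower (15.2%), near the 14.5% and 15.5% of all genes. Of 28 other hydrolases and activators 13 rose and 1 fell in Soft (the peptidase gene CTSC, named after its values were seen, at -1.14), with a median log2 fold change of 0.59, and 1 rose and 0 fell in sh_PIP4K2B. Of 9 other V-ATPase subunits 0 passed in Soft, 7 were negative and the median was -0.20. The 26 tested genes of MiT/TFE relatives and the mTORC1 platform had 3 higher and 3 lower in Soft, 15 other lysosomal membrane and sorting proteins had 2 and 1, 22 other core autophagy genes had 2 and 2, and 12 other receptors had 1 and 1.

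DDIT4 rose in both conditions. It encodes an inhibitor of mTORC1 known from stress responses, and was at 12.7, 11.2 and 11.7 CPM in Control, 48.5, 52.5 and 41.0 CPM with hairpins #1, #2 and #3 (log2 fold change 1.99, SE 0.12, adjusted p = 8.0e-05, edgeR) and 110.2, 106 and 106 CPM in Soft (log2 fold change 3.18, SE 0.12, adjusted p = 1.1e-06, edgeR). Other genes that rose in sh_PIP4K2B were the sestrin genes SESN2 and SESN1, whose products restrain mTORC1, and ATP6V1G1, a pump subunit, which is named here after its values were seen. SESN2 was at 28.9, 28.6 and 25.4 CPM in Control and 65.2, 114 and 212 CPM with the hairpins (log2 fold change 2.24, SE 0.37, adjusted p = 0.0046, edgeR), and SESN1 at 14.99, 16.5 and 15.7 and 72.0, 93.4 and 40.3 CPM (log2 fold change 2.12, SE 0.26, adjusted p = 0.0014, edgeR). ATP6V1G1 was at 80.6, 85.6 and 85.8 and 225, 158 and 125 CPM (log2 fold change 1.01, SE 0.19, adjusted p = 0.0077, edgeR). In Soft SESN2, SESN1 and ATP6V1G1 did not pass, at -0.07, -0.17 and -0.18, and all 3 were lower in Soft than with the hairpins (-2.30, SE 0.37, -2.30, SE 0.26 and -1.20, SE 0.19, adjusted p = 9.3e-04, 1.7e-04 and 8.3e-04, edgeR).

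Of these calls against Control only DDIT4 held in every setting tried. In sh_PIP4K2B those of SESN1, SESN2 and ATP6V1G1 ended in the fit of 2 groups alone and without any 1 Control library (adjusted p = 0.011 to 0.047, edgeR), and those of SESN2 and ATP6V1G1 also without any 1 Soft library and with the block. The 3 differences between Soft and the hairpins held throughout.

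In Soft the highest of the wider list after DDIT4 was the protease gene CTSS, at 0.373, 0.395 and 0.437 CPM in Control and 2.51, 2.62 and 2.77 in Soft (log2 fold change 2.69, SE 0.33, adjusted p = 2.0e-04, edgeR), a low level in both. The calls of EPG5 and CTSC in Soft held in every setting tried, and that of CTSS in every setting but the filter of 10 counts in every library, which it did not pass. The lowest were TFEC, a MiT/TFE relative at 0.978, 0.878 and 1.05 CPM in Control and 0.137, 0.143 and 0.224 in Soft, close to the floor so that no fold is given, and EPG5, a tether for the fusion of autophagosomes with lysosomes. EPG5 went from 175, 168 and 174 to 39.4, 46.2 and 46.0 CPM (log2 fold change -1.97, SE 0.17, adjusted p = 3.6e-05, edgeR), with the hairpin libraries at 145, 93.4 and 142 CPM. Between the conditions CTSO, another cysteine protease gene, had the highest difference, at 48.2, 45.0 and 45.4 CPM in Soft and 11.0, 5.20 and 13.5 with the hairpins (log2 difference 2.22, SE 0.28, adjusted p = 2.7e-04, edgeR). CTSS followed, at a low level of 0.506, 0.819 and 1.24 CPM with the hairpins (log2 difference 1.62, SE 0.30, adjusted p = 0.0021, edgeR).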

How the data were processed

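Stranded mRNA libraries of 9 samples were sequenced as paired reads of 75 nt. The submitters' processing notes name STAR, Salmon and GRCh38/hg38. How reads were assigned to genes, and with which annotation, is not given in the sources used here. The authors deposited estimated counts for each gene and library, without normalisation. Of the values, 12.3% were not whole, and all were rounded.

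Genes were tested in 1 fit over 9 libraries with edgeR 4.0.16 in R 4.3.3 (TMM, filterByExpr, quasi-likelihood F test, Benjamini-Hochberg over 13784 genes, threshold 0.01), and the SE was taken from the F statistic. Alternatives included DESeq2 1.42.0. Levels are TMM-scaled CPM, divided by the GENCODE canonical transcript length where given per kb. Each 75-mer of that transcript was looked up in transcripts of other genes. Scripts were tested on simulated data. The 55 members and the gene lists were chosen with earlier results of these data known. Fold changes are given for members past the threshold, for TFEB, TFE3, LAMP1, SQSTM1 and MAP1LC3B throughout, and, of the wider list, for DDIT4, called in both conditions, and the 2 highest and 2 lowest calls of each comparison. TFEC, close to the floor, was left out of that order. Other members are given by value or by the range of their group. Results of a few genes are not reported here.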

Additional observations from a re-analysis of the deposited data

Results flagged for a closer look

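For 3 of the 55 genes the hairpin and Soft libraries lay on opposite sides of every Control library and their difference passed 0.01. ATP6V1B2 and ATP6V1H had such an arrangement too, but their difference did not pass (adjusted p = 0.014 and 0.018, edgeR). The arrangement was not counted over all genes. The log2 difference of Soft against sh_PIP4K2B was 1.16 for CTSZ (adjusted p = 2.7e-05, edgeR) and 1.37 for SGSH (adjusted p = 1.4e-04, edgeR), both lower than Control with the hairpins and higher in Soft. It was -0.74 for ATG12 (adjusted p = 4.1e-04, edgeR), higher than Control with the hairpins and lower in Soft. All 3 differences stayed past the threshold without any 1 library and in each other setting tried.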

How the results depend on the processing

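In sh_PIP4K2B the 3 genes called higher became 7 by DESeq2, 0 in a fit of the 2 groups alone, 7 at a threshold of 0.05 and 1 at 0.001, and the 0 called lower became 2 by DESeq2 and 2 at 0.05. With a library left out the counts were 0 to 14 higher and 0 to 2 lower, and of the wider list DESeq2 called 13 higher and 4 lower. In Soft the 17 higher became 34 in the fit of 2 groups and 8 at 0.001 (8 to 29 with a library left out), and the 5 lower became 3 with library size, 8 by DESeq2, 14 in the fit of 2 groups, 8 at 0.05 and 2 at 0.001 (2 to 10), with 3 of the wider list lower with library size. In Soft against sh_PIP4K2B the 9 higher became 4 in the fit of 2 groups and 4 at 0.001 (5 to 14), and the 7 lower became 13 by DESeq2, 3 in the fit of 2 groups, 14 at 0.05 and 3 at 0.001 (3 to 13). With a library left out, calls in both directions reached 15 in sh_PIP4K2B without hairpin #3 and 39 in Soft without hairpin #1. In these settings 1770 and 6373 of all genes passed. Leaving out a library gave, over all genes, 66 to 2013 calls in sh_PIP4K2B, 2506 to 6373 in Soft and 2350 to 5374 between the conditions. DESeq2 called 2066, 5447 and 5403 of all genes in that order, and the fits of 2 groups called 5, 9601 and 2183. No call turned its direction, but uncalled values did with a library left out, where TFE3 ran from -0.006 (without hairpin #3) to 0.20, LAMP1 from -0.99 to 0.22 (without hairpin #3) and MAP1LC3B from -0.012 (without hairpin #1) to 0.17 in sh_PIP4K2B, and TFE3 from -0.034 (without hairpin #1) to 0.17 in Soft against sh_PIP4K2B. PIP4K2B in Soft, near 0 in the fit of all groups, was -0.011 without the filter, -0.005 by DESeq2, -0.001 in the fit of 2 groups and -0.022 to 0.022 with a library left out. With scaling by library size the median over all genes was 0.14 in sh_PIP4K2B. Replicate numbers showed no clear pairing of the libraries (correlations of same-numbered deviations from -0.12 to 0.04). In 4 of 9 comparisons of a library with another group, its own number correlated best. This was 1 of 3 between Control and sh_PIP4K2B, 0 of 3 between Control and Soft and 3 of 3 between sh_PIP4K2B and Soft. These values cannot exclude a pairing. With the replicate block 2 of the 3, 18 of the 22 and 14 of the 16 calls remained. The cause of these changes was not tested. All 55 genes passed the filter on counts, whereas 4 of the wider list were not tested at these counts.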
